A study of Rattus norvegicus with 6 samples.

Results

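Conjugation enzymes coded by 10 genes were followed in the renal cortex of rats given an organophosphate flame retardant. They are the glucuronosyltransferases Ugt1a1, Ugt1a6 and Ugt2b1, the related galactosyltransferase Ugt8, the cofactor enzyme Ugdh and the sulfotransferases Sult1a1, Sult1b1, Sult1c2, Sult1d1 and Sult2a1. Their probes were found by accession, and the 10 genes had 19 of the 61657 non-control probes on the array. Of the 10 genes 7 were tested among 11804, and 14 of their 19 probes among 41040. The other 3 genes, Ugt2b1, Sult1d1 and Sult2a1, were not well above background on all arrays of either group.

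RNA from 6 male Sprague-Dawley rats, an outbred laboratory stock bought at 5 weeks of age, was hybridised to single-colour Agilent arrays, 1 rat per array. The vehicle group (3 rats) received corn oil for 4 weeks, and the TCEP group (3 rats) received tris(2-chloroethyl)phosphate at 400 mg/kg/day for the same 4 weeks. The route of dosing and the age at sampling are not given in the sources used here. Renal cortex is a mixture of tubules, glomeruli, vessels and blood cells, so fewer cells of a type and less RNA per cell cannot be told apart.

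Glucuronosyltransferases sit in the membrane of the endoplasmic reticulum and join glucuronic acid, delivered as UDP-glucuronate, to drugs, phenols, bilirubin and steroids. Sulfotransferases work in the cytosol and move a sulfonate group from the donor PAPS onto phenols, amines and steroids. Both reactions make compounds more soluble for excretion in bile and urine, and in the kidney the proximal tubule is a main site of them. The Ugt1a enzymes are made from a single locus in which separate first exons are joined to shared later exons. In the RefSeq table of the GRCr8 assembly all 8 protein-coding Ugt1a genes have the same 3′ end. A probe in the shared part takes up signal from any of them, and the sites of these probes within the transcripts are not given in the sources used here.

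A level is the log2 processed signal of a probe minus the log2 75th percentile of its array. A difference is the TCEP mean minus the vehicle mean of these levels. SDs, given after ±, are over the 3 arrays of a group. Levels of different probes are not compared, since probes differ in brightness. Adjusted p-values are limma's, with Benjamini-Hochberg adjustment over all genes tested, or over all probes where a probe is named.

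Per array, 67.2% to 69.3% of probes passed the scanner software's test of being well above background, and within groups genes had a median SD of 0.13. Slide 1 carried the vehicle arrays and slide 2 the TCEP arrays, each with a scan time of its own, so slide and group cannot be told apart. All 12 listed proximal tubule markers were well above background on all 6 arrays. Their summed level, in units of the 75th percentile of the array, was 2071 to 2135 on the vehicle arrays and 1950.5 to 2261 on the TCEP arrays. Of these markers 7 had higher and 5 lower means, with 1 each way at an unadjusted p under 0.05. Of 6 intercalated cell markers 5 were lower with TCEP at an unadjusted p under 0.05, and the summed level of all 6 was 142 to 156 on vehicle arrays and 112 to 129 on TCEP arrays. Of all genes 4.12% were lower at that threshold, and 52.5% had a higher mean. All 6 collecting duct principal cell, all 6 podocyte and all 6 tested macrophage markers had lower means, with 1, 0 and 0 at that threshold. So did 5 of 6 endothelial, all 4 tested neutrophil and erythroid and all 3 tested lymphocyte markers, with 0 at that threshold. Of 5 thick ascending limb markers 3 were higher and 2 lower, 1 of the lower at that threshold. Of 4 tested distal tubule markers 3 were lower (median -0.38), 2 of them at that threshold. The part of cell makeup in the member differences was not tested.

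TCEP replicate 1 stood apart in several liver transcripts. Of 12 listed hepatocyte markers 11 were well above background on that array, against 5 to 7 on the others. Their summed level was 8.99 there and 4.0 to 5.85 on the other 5 arrays. Alb, which encodes serum albumin, was at 0.85 on TCEP replicate 1 and at most -6.34 elsewhere, and Ttr, the carrier protein transthyretin, was at 0.30 and at most -6.73. Tat, a liver enzyme of tyrosine breakdown, was not well above background on any array. Not every listed marker was highest on TCEP replicate 1: Fga, Apoh and Cyp2c11 peaked on other arrays. Ahsg was lowest there, at -1.63 against -1.34 to -0.64 elsewhere. Each member difference below is therefore also given without TCEP replicate 1.

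Across the 7 tested members 6 had a higher mean with TCEP and 1 a lower mean, where 52.5% of all genes tested had a higher mean. The members' median difference was 0.27, against 0.01 over all genes. Members were chosen with earlier results of these data known, so their counts and median are a description only. None passed an adjusted p of 0.05, and neither did any of the 11804 genes (0%) or 41040 probes (0%) in limma. At an unadjusted p under 0.05 there were 3 members, Ugt1a1, Ugt1a6 and Sult1b1, each higher with TCEP. Of all genes 8.33% reached that threshold, 4.21% higher and 4.12% lower. These shares, and the 52.5% above, also stand beside the counts of the gene lists below. For 2 members, Ugt1a6 and Sult1b1, all TCEP arrays lay above all vehicle arrays, and 0 members had them all below. Of all genes 15.6% had groups that did not overlap, 8.63% with TCEP higher and 6.97% with TCEP lower. Of the 14 tested member probes 12 had a higher mean with TCEP, against 48.5% of all probes. At an unadjusted p under 0.05 there were 6 member probes, all higher, where 8.32% of all probes reached it, 3.49% higher and 4.83% lower. For 5 member probes the TCEP arrays lay wholly above the vehicle arrays, where 15.3% of all probes had groups that did not overlap, 7.15% with TCEP higher and 8.11% with TCEP lower. Probes of the same gene are not replicates of the condition. Ugt1a1 and Ugt1a6 come from a single locus with shared exons, so their probes may share signal. The member and probe counts above are therefore not counts of independent readings. Of the 983 genes at an unadjusted p under 0.05, 50.6% were higher, a share that was 69.6% without scaling between arrays and 62.2% with centring on spike-in probes.

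**Figure D1:**
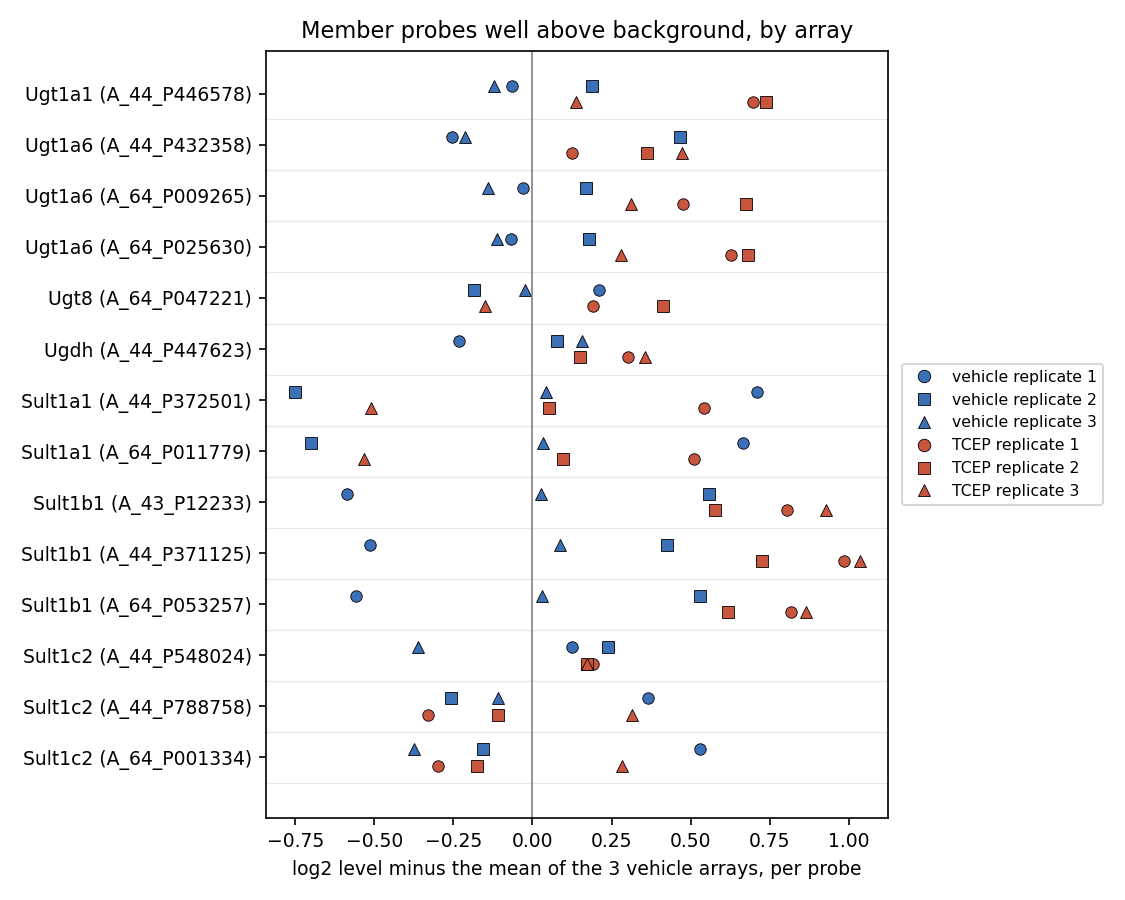
Levels of the 14 tested member probes on each array, as the log2 level minus that probe's vehicle mean (x axis), 1 row per probe, with vehicle arrays in blue and TCEP arrays in red. The 3 probes of Sult1b1 have every TCEP array to the right of every vehicle array, while the vehicle and TCEP arrays of Sult1a1 interleave, from 2.99 to 4.35 on its brighter probe.

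The promoters of Ugt1a6, Ugdh and Sult1b1 are shown because Ugt1a6 and Sult1b1 are the members whose groups did not overlap and Ugdh supplies the sugar that the Ugt enzymes use. Each run is the 250 bases before the gene's start in RefSeq (GRCr8, plus strand), at chr9:96194768-96195017 for Ugt1a6, chr14:43202268-43202517 for Ugdh and chr14:20771667-20771916 for Sult1b1. Capitals mark matches, on either strand, to the core of the aryl hydrocarbon receptor element (GCGTG), the core of the antioxidant response element (TGACNNNGC) and a half-site of the hepatocyte factor HNF1 (GTTAAT).
Ugt1a6: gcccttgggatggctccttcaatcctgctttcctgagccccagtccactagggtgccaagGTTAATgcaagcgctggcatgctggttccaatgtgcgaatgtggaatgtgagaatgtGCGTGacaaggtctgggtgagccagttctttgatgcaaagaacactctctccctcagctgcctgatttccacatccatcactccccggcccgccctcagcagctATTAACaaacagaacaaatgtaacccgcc
Ugdh: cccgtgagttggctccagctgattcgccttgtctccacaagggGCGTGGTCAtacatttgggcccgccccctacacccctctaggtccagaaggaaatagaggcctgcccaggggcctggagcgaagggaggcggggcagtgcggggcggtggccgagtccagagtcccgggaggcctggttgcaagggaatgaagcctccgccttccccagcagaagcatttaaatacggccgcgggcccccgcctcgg
Sult1b1: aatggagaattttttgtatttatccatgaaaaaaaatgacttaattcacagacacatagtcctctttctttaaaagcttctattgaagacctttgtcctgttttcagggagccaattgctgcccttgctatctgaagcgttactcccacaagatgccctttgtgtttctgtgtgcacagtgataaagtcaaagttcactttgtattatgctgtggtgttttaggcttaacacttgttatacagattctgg
In Ugt1a6 the letters GCGTG lie 133 to 129 bases before the start, and HNF1 half-sites lie at 190 to 185 and, on the minus strand, at 29 to 24. In Ugdh the letters GCGTG, 207 to 203 bases before the start, overlap a minus-strand match to the antioxidant core at 207 to 199. Sult1b1 has no match to these letters in this window, and of the other members only Ugt1a1 (an HNF1 half-site) and Ugt8 (GCGTG) have any. Among 33469 promoters of the same length, 25.9% hold GCGTG, 10.1% the antioxidant core and 6.45% the HNF1 half-site. A match describes the letters only.

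Among the glucuronosyltransferases, Ugt1a6, which conjugates flat phenols, was at 6.18, 6.38 and 6.07 on vehicle replicates 1 to 3 and at 6.68, 6.88 and 6.52 on TCEP replicates 1 to 3. Every TCEP array thus lay above every vehicle array, with vehicle replicate 2 nearest to the TCEP range. The means were 6.21 ± 0.16 and 6.70 ± 0.18, a difference of 0.49 (SE 0.13), or 1.40-fold with a 95% confidence interval of 1.13 to 1.74. The unadjusted p was 0.00853 and the adjusted p 0.535. Without TCEP replicate 1 the difference was 0.49 (adjusted p = 0.641).

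The other probes of Ugt1a6 had the same sign. A_64_P025630, named by the same accession, was at 4.26, 4.51 and 4.22 on vehicle arrays and at 4.96, 5.01 and 4.61 on TCEP arrays, again without overlap. Its difference was 0.53 (SE 0.14, adjusted p over probes 0.551). A_44_P432358, named by a further Ugt1a6 accession, was at 0.23, 0.95 and 0.27 on vehicle arrays and at 0.61, 0.85 and 0.96 on TCEP arrays. Here vehicle replicate 2 lay within the TCEP range, and the difference was 0.32 (SE 0.22, adjusted p over probes 0.728).

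Ugt1a1, the enzyme that conjugates bilirubin, was at 1.75, 2.00 and 1.69 on vehicle arrays and at 2.51, 2.55 and 1.95 on TCEP arrays. TCEP replicates 1 and 2 lay above all vehicle arrays, and TCEP replicate 3 lay below vehicle replicate 2. The means were 1.81 ± 0.16 and 2.34 ± 0.34, a difference of 0.53 (SE 0.19, unadjusted p = 0.0302, adjusted p = 0.561). The fold was 1.44, with a 95% confidence interval of 1.05 to 1.97. Without TCEP replicate 1 the difference was 0.44, and without TCEP replicate 3 it was 0.72.

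Probes named for Ugt1a2, another gene of the locus, gave a similar difference. The brighter was at 4.23, 4.59 and 4.19 on vehicle arrays and at 4.93, 5.02 and 4.66 on TCEP arrays, without overlap. Its difference was 0.53 (SE 0.15, adjusted p = 0.535). The dimmer gave 0.43 (SE 0.16, adjusted p over probes 0.576), with overlap. A probe named for Ugt1a9 lay between -4.05 and -2.97 on vehicle arrays and between -3.99 and -2.74 on TCEP arrays, which overlapped widely (difference 0.34, SE 0.41, and 0.06 to 0.69 with 1 array left out). Whether the probes named for Ugt1a1, Ugt1a2 and Ugt1a6 lie in shared or separate exons is not known here, so they are not counted as independent readings of the locus.

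Ugt2b1, a rat liver enzyme that conjugates steroids and opioids, was near the lower end of the scale on 5 of the 6 arrays. Its single probe was at -8.12, -8.23 and -7.97 on vehicle arrays and at -5.59, -8.08 and -8.04 on TCEP arrays. It was well above background on TCEP replicate 1 and on 0 other arrays, and the lowest level well above background was -6.06 to -5.75 across the arrays. TCEP replicate 1 is the array high in liver transcripts such as Alb and Ttr, whose part in the Ugt2b1 signal was not tested. No fold is given, since 1 of 3 TCEP arrays measured the gene.

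**Figure D2:**
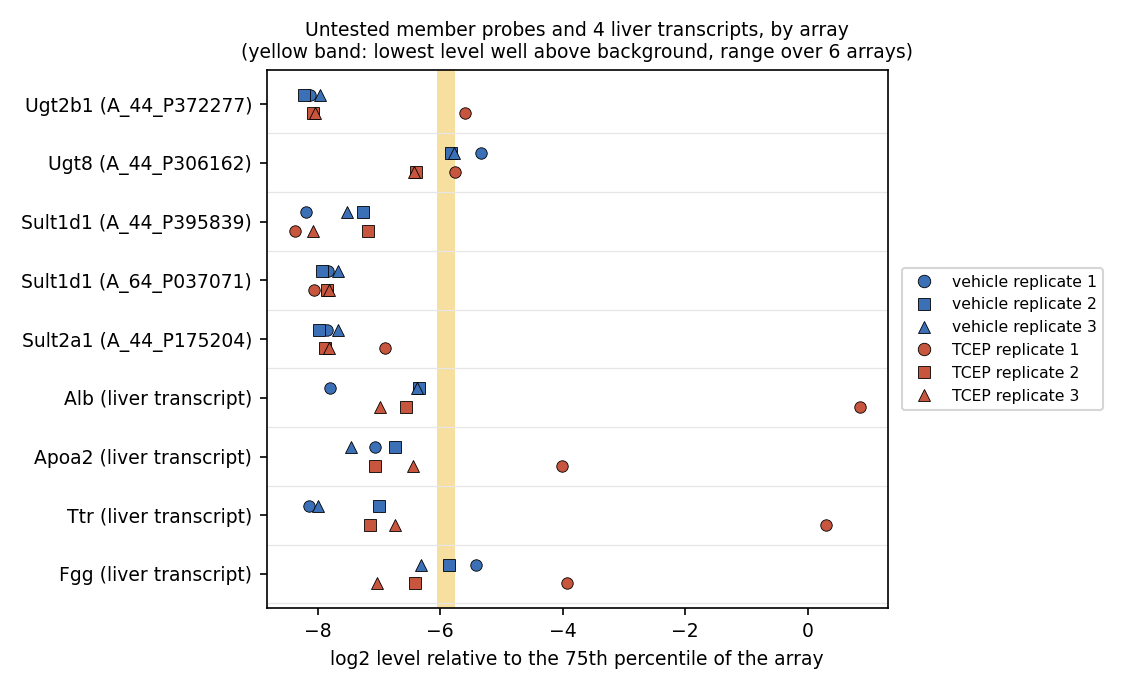
Log2 levels (x axis) of the 5 member probes that were not tested and of 4 liver transcripts on each array, 1 row per probe, with the lowest level well above background as a yellow band. Ugt2b1, Alb, Apoa2, Ttr and Fgg were all highest on TCEP replicate 1, where Ugt2b1 was at -5.59, and the probes of Sult1d1 and Sult2a1 stayed left of the band on all arrays. Fga, Apoh, Cyp2c11 and Ahsg, listed liver markers that are not shown, were highest on other arrays.

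Other Ugt2b genes on the array did not share a direction. Ugt2b7, a relative of Ugt2b1 within the gene cluster that conjugates steroids and opioids, differed most in this family. It was at -1.62, -1.33 and 0.09 on vehicle arrays and at 1.52, 1.44 and 1.82 on TCEP arrays. The groups did not overlap, and vehicle replicate 3 was the vehicle array nearest to the TCEP range. The means were -0.95 ± 0.92 and 1.59 ± 0.20, a difference of 2.55 (SE 0.45), or 5.85-fold with a 95% confidence interval of 2.73 to 12.5. Its unadjusted p was 0.00133 and its adjusted p 0.533. Leaving out TCEP replicate 1 gave 2.58, and leaving out vehicle replicate 3 gave 3.07 (adjusted p = 0.0870).

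Ugt2b15, Ugt2b35 and Ugt2b37 had lower means with TCEP, by -0.17 (SE 0.21), -0.17 (SE 0.23) and -0.28 (SE 0.21), with adjusted p-values of 0.854, 0.870 and 0.755. In each the TCEP arrays lay within the vehicle range. Vehicle replicate 3 was the lowest of the 6 arrays for all 3 genes, for example at 4.85 for Ugt2b35 against 5.06 to 5.67 on the others. Without that array the differences were -0.42, -0.43 and -0.52 and the groups no longer overlapped. Without vehicle replicate 2 they were -0.05, -0.02 and -0.11, and without vehicle replicate 1 they were -0.05, -0.05 and -0.21. A dimmer probe of Ugt2b37 had the opposite sign, at 0.31 (SE 0.26). Members of this family resemble each other in sequence, so how far each probe reads its named gene alone is uncertain. Ugt2a1, Ugt2a3 and Ugt2b10 were not well above background on all arrays of either group.

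Ugt8 is a family member that uses another sugar: it adds galactose to ceramide, the first step to the galactolipids and sulfatides of myelin and of kidney tubules. Its brighter probe was at -4.03, -4.43 and -4.27 on vehicle arrays and at -4.05, -3.83 and -4.39 on TCEP arrays. The groups overlapped, with a difference of 0.15 (SE 0.17, 95% confidence interval -0.27 to 0.58, adjusted p = 0.841), or 0.13 without TCEP replicate 1 and 0.02 to 0.30 over all 6 arrays left out in turn. A further probe was at -5.33, -5.82 and -5.78 on vehicle arrays and at -5.77, -6.40 and -6.42 on TCEP arrays, a measured difference of -0.55. That probe was well above background on 1 array of each group and was not tested. The probes thus differ in sign, and their mean gave -0.20.

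Of 7 tested genes of the galactosylceramide and sulfatide list 4 were higher and 3 lower, with a median of 0.00 and 0 at an unadjusted p under 0.05 in either direction. Without TCEP replicate 1, and also with the mean over the probes of a gene, 2 of 7 were higher, with a median of -0.10. Psap, the precursor of the saposins that help break these lipids down, differed by -0.16 (SE 0.08, adjusted p = 0.661), and Mal, a myelin and tubule membrane protein, by -0.19 (SE 0.12). Leaving out TCEP replicate 1 gave -0.10 and -0.32, and without TCEP replicate 2 Mal was at -0.11. Cers2, a ceramide synthase, differed by 0.06 (SE 0.06), and Gal3st1, which sulfates galactosylceramide, by -0.10 (SE 0.14), or -0.21 to 0.03 with 1 array left out. Of 7 listed Schwann cell and nerve markers 7 were well above background on the vehicle arrays and 6 on each TCEP array, with a summed level of 1.80 to 2.10 and 1.92 to 2.01. Cells other than tubule cells can hold Ugt8, and their part was not tested.

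Ugdh oxidises UDP-glucose to UDP-glucuronate, the donor for every glucuronosyltransferase. Its single probe was at 2.36, 2.66 and 2.74 on vehicle arrays and at 2.89, 2.74 and 2.94 on TCEP arrays. TCEP replicate 2 (2.737) lay just below vehicle replicate 3 (2.743), so the groups overlapped, and the other TCEP arrays lay above the vehicle range. The means were 2.59 ± 0.20 and 2.86 ± 0.11, a difference of 0.27 (SE 0.12, unadjusted p = 0.0700, adjusted p = 0.634). The fold was 1.21 (95% confidence interval 0.98 to 1.48). Without vehicle replicate 1, the lowest array, the difference was 0.15, and without TCEP replicate 1 it was 0.25.

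The wider UDP-glucuronate list had 8 of 9 tested genes higher, against 52.5% of all genes tested, with a median of 0.04. It had 6 of 9 higher with the mean over the probes of a gene (median 0.02), and medians of 0.12 with normexp, 0.09 without TCEP replicate 2 and 0.10 without TCEP replicate 3. At an unadjusted p under 0.05 there were 2 higher and 0 lower, where 4.21% of all genes were higher and 4.12% lower. Ugp2, which makes UDP-glucose, was at 3.48, 3.67 and 3.36 on vehicle arrays and at 3.84, 3.76 and 3.70 on TCEP arrays. Its groups did not overlap, and the difference was 0.26 (SE 0.10, adjusted p = 0.575). Slc35d2, a nucleotide sugar transporter, differed by 0.39 (SE 0.09, adjusted p = 0.533), also without overlap. Slc35d1, which carries UDP-glucuronate into the endoplasmic reticulum, differed by 0.15 (SE 0.08, adjusted p = 0.695), and Slc35a3, a transporter of UDP-N-acetylglucosamine, by 0.12 (SE 0.09, adjusted p = 0.759), or 0.06 without vehicle replicate 1 and 0.19 without vehicle replicate 2.

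Among the sulfotransferases, Sult1b1 sulfonates small phenols and thyroid hormones. Its brightest probe was at 3.40, 4.49 and 3.99 on vehicle arrays and at 4.77, 4.57 and 4.82 on TCEP arrays. All TCEP arrays lay above all vehicle arrays, although vehicle replicate 2 was close to TCEP replicate 2 and vehicle replicate 1 was far below. The means were 3.96 ± 0.54 and 4.72 ± 0.13, a difference of 0.77 (SE 0.27, unadjusted p = 0.0302, adjusted p = 0.561). The fold was 1.70, with a 95% confidence interval of 1.07 to 2.70.

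The size of the Sult1b1 difference rested in part on vehicle replicate 1. Leaving that array out gave 0.49 (SE 0.18, adjusted p = 0.816), and leaving out vehicle replicate 2 gave 1.03 (SE 0.20, adjusted p = 0.478). Without TCEP replicate 1 it was 0.74 (SE 0.33). The other probes of the gene gave 0.77 (SE 0.29) and 0.92 (SE 0.24), with adjusted p-values over probes of 0.583 and 0.551. Each showed the same order of vehicle arrays and no overlap between groups.

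Sult1a1, the main sulfotransferase for simple phenols, varied more between rats than between groups. Its brighter probe was at 4.35, 2.99 and 3.72 on vehicle arrays and at 4.20, 3.78 and 3.15 on TCEP arrays. Vehicle replicate 1 and TCEP replicate 1 were high, and vehicle replicate 2 and TCEP replicate 3 were low. The means were 3.69 ± 0.69 and 3.71 ± 0.53, a difference of 0.03 (SE 0.41, 95% confidence interval -0.99 to 1.04, adjusted p = 0.991). On the fold scale the interval runs from 0.50 to 2.05. The second probe gave 3.44, 1.97 and 2.77 on vehicle arrays and 3.27, 2.78 and 2.21 on TCEP arrays, the same order of all 6 rats. The sign of the Sult1a1 difference turned in 6 of 17 alternatives, with a range of -0.33 to 0.36. Without TCEP replicate 1 it was -0.22, without vehicle replicate 2 it was -0.33 and without vehicle replicate 1 it was 0.36.

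Sult1c2 was at 7.12, 6.44 and 6.22 on vehicle arrays and at 6.30, 6.42 and 6.88 on TCEP arrays. Vehicle replicate 1 and TCEP replicate 3 were highest, and the groups overlapped. The means were 6.59 ± 0.47 and 6.53 ± 0.31, a difference of -0.06 (SE 0.27, 95% confidence interval -0.73 to 0.60, adjusted p = 0.962). The sign turned in 4 of 17 alternatives, among them leaving out TCEP replicate 1 (0.05).

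The 3 probes of Sult1c2 did not all follow each other, and their differences had both signs. A_44_P788758 gave -0.04 (SE 0.22) and A_44_P548024 gave 0.18 (SE 0.16). A_44_P788758 was at 4.47, 3.85 and 4.0 on vehicle arrays and at 3.78, 4.0 and 4.42 on TCEP arrays, so vehicle replicate 1 and TCEP replicate 3 were again highest. A_44_P548024 was instead at 5.33, 5.44 and 4.84 on vehicle arrays and at 5.39, 5.37 and 5.37 on TCEP arrays, with vehicle replicate 3 lowest. The neighbouring gene Sult1c2a was at 7.10, 7.45 and 6.72 on vehicle arrays and at 7.61, 7.58 and 7.33 on TCEP arrays, also with vehicle replicate 3 lowest. The difference for Sult1c2a was 0.42 (SE 0.20, adjusted p = 0.646), and vehicle replicate 2 lay above TCEP replicate 3. Without vehicle replicate 3 that difference was 0.23.

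Sult1d1, which sulfonates catecholamines and eicosanoids, was not well above background on any array, with its probes between -8.37 and -7.17. Sult2a1, the sulfotransferase of hydroxysteroids and bile acids in liver and adrenal, was also not well above background on any array. Its probe lay between -7.97 and -7.68 on vehicle arrays and at -6.91, -7.88 and -7.81 on TCEP arrays. These levels lie below the lowest level well above background (-6.06 to -5.75), so their order across arrays is not read. No difference is given for either gene. Of 9 adrenal cortex markers, Star and Cyp11b1 were not well above background on any array. Cyp21a1, Cyp17a1 and Hsd3b1 were so on all 6 arrays, and 5 to 7 of the 9 were so per array.

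**Figure D3:**
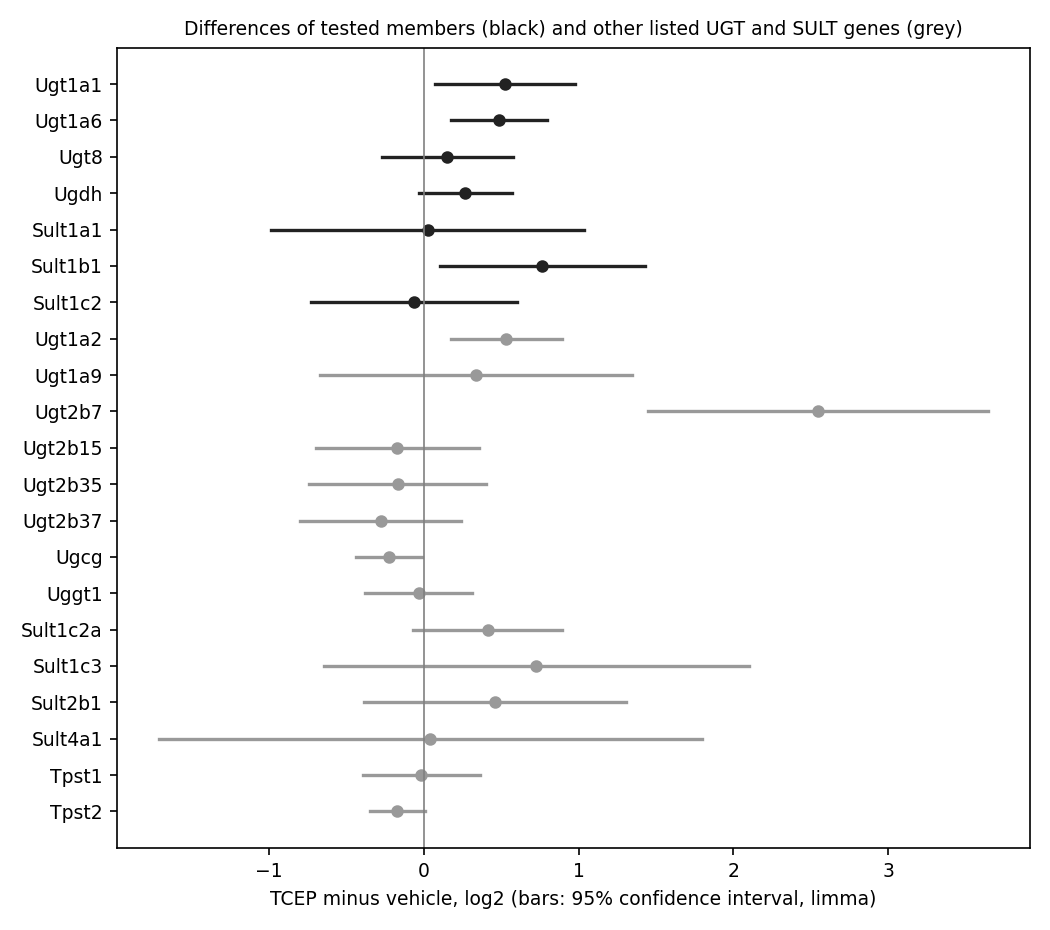
TCEP minus vehicle differences on the log2 scale (x axis) with 95% confidence intervals from limma, for the 7 tested members in black and 14 other listed glucuronosyltransferase, sulfotransferase and like-named genes in grey. The intervals of Ugt1a1, Ugt1a6 and Sult1b1 lie above 0, that of Sult1a1 reaches from -0.99 to 1.04, and Ugt2b7 stands farthest right at 2.55.

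Among the other listed glucuronosyltransferases and like-named glycosyltransferases 8 of 20 were tested, of which 3 were higher and 5 lower (median -0.10, and -0.15 to 0.01 with 1 array left out, the last without TCEP replicate 1). At an unadjusted p under 0.05 there were 2 higher, Ugt2b7 and Ugt1a2, and 1 lower. The lower gene, Ugcg, makes glucosylceramide and differed by -0.23 (SE 0.09, adjusted p = 0.583), but by -0.15 without TCEP replicate 1 and by -0.02 with normexp background correction. Uggt1, which checks glycoprotein folding, differed by -0.03 (SE 0.14), or -0.11 to 0.12 with 1 array left out.

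The other sulfotransferase list had 6 of 12 genes tested, 4 higher and 2 lower, with a median of 0.23 (0.04 without TCEP replicate 1 and 0.55 without vehicle replicate 2). In it 0 genes reached an unadjusted p under 0.05. Tpst2, a Golgi enzyme that sulfates tyrosines of secreted proteins, was at 1.38, 1.45 and 1.28 on vehicle arrays and at 1.25, 1.13 and 1.21 on TCEP arrays. Its TCEP arrays lay below its vehicle arrays by a mean of -0.17 (SE 0.07, adjusted p = 0.611). Tpst1, of the same reaction, differed by -0.01 (SE 0.15), or -0.11 to 0.15 with 1 array left out. Sult1e1, Sult2a2, Sult2a6 and Sult6b1 were not well above background on any array.

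Supply of the sulfonate donor was measured through 8 of 11 listed genes, of which 3 were higher and 5 lower. Their median was -0.14, and it was -0.06 without TCEP replicate 1, -0.09 without TCEP replicate 3, -0.08 without vehicle replicate 1 and -0.06 with normexp, where 0 of the 8 were higher. Bpnt2, a Golgi phosphatase that removes the spent donor, was the 1 gene at an unadjusted p under 0.05, lower by -0.32 (SE 0.13, adjusted p = 0.592) and by -0.18 without TCEP replicate 3. Slc13a1, the sodium-sulfate cotransporter of the proximal brush border, was at 4.35, 4.46 and 4.44 on vehicle arrays and at 3.98, 4.17 and 4.34 on TCEP arrays. Its groups met without overlap, and the difference was -0.25 (SE 0.11, adjusted p = 0.602), or -0.16 without TCEP replicate 1. Slc35b2, the PAPS transporter of the Golgi, differed by 0.11 (SE 0.07), or 0.05 without vehicle replicate 3. Slc26a6, an anion exchanger, differed by 0.16 (SE 0.11), or 0.27 without TCEP replicate 1 and 0.09 without TCEP replicate 2. With normexp both turned to -0.01.

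**Figure D4:**
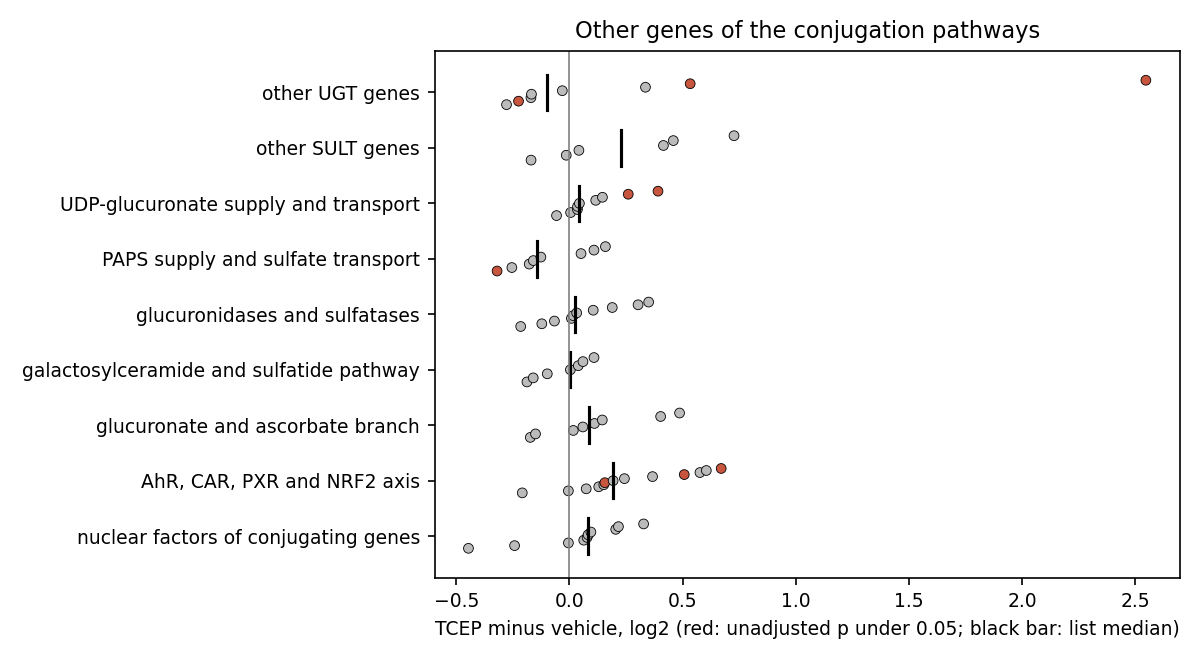
TCEP minus vehicle differences on the log2 scale (x axis) of the tested genes in 9 listed pathways, 1 point per gene, with genes at an unadjusted p under 0.05 in red and the list median as a black bar. The medians run from -0.14 for PAPS supply and sulfate transport to 0.23 for the other sulfotransferase genes, and Ugt2b7 is the isolated point at 2.55.

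Receptors and sensors that induce these enzymes were also listed, with some of their target genes. The AhR, CAR, PXR and NRF2 list held 20 genes, of which 13 were tested, and no Cyp gene of the list was among those tested. Of the 13 tested genes 11 were higher and 2 lower, where 52.5% of all genes tested had a higher mean. The list median was 0.19 (0.08 with normexp). At an unadjusted p under 0.05 there were 3 higher, Nr1i3, Srxn1 and Keap1, and 0 lower. Of all genes 4.21% were higher and 4.12% lower at that threshold, and the list was chosen with earlier results of these data known. Nr1i3, the receptor CAR, was at -5.45, -5.09 and -5.39 on vehicle arrays and at -4.43, -5.01 and -4.97 on TCEP arrays. Its groups did not overlap, and the difference was 0.51 (SE 0.19, adjusted p = 0.576), but 0.32 without TCEP replicate 1 and 0.05 with normexp. Nr1i2, the receptor PXR, differed by 0.19 (SE 0.09, adjusted p = 0.634) and by 0.04 with normexp. Its groups met without overlap, with vehicle replicate 1 at 2.415 and TCEP replicate 1 at 2.420.

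The aryl hydrocarbon receptor gene Ahr was at -4.03, -4.17 and -3.93 on vehicle arrays and at -4.46, -4.24 and -4.05 on TCEP arrays, which overlapped (difference -0.21, SE 0.12). It was -0.10 without TCEP replicate 1 and -0.06 with normexp. Ahr was named after its values were seen. Keap1, the partner that holds NRF2 back, differed by 0.16 (SE 0.06, adjusted p = 0.599), and Srxn1, a target of NRF2, by 0.67 (SE 0.26, adjusted p = 0.587). Without TCEP replicate 2 the Srxn1 difference was 0.40. Of the nuclear factors, Foxa1 differed by -0.45 (SE 0.25), the bile acid receptor gene Nr1h4 by 0.22 (SE 0.13), the vitamin D receptor gene Vdr by -0.24 (SE 0.15) and Esrra by 0.08 (SE 0.07). With 1 array left out these ran from -0.70 to -0.29, 0.10 to 0.28, -0.40 to -0.11 and 0.05 to 0.13, and with normexp they were -0.24, 0.10, -0.12 and 0.04. In that list 7 genes were higher and 3 lower (median 0.08, or 0.03 without TCEP replicate 3 and with normexp), and 0 of 10 tested genes reached an unadjusted p under 0.05 in either direction.

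**Figure D5:**
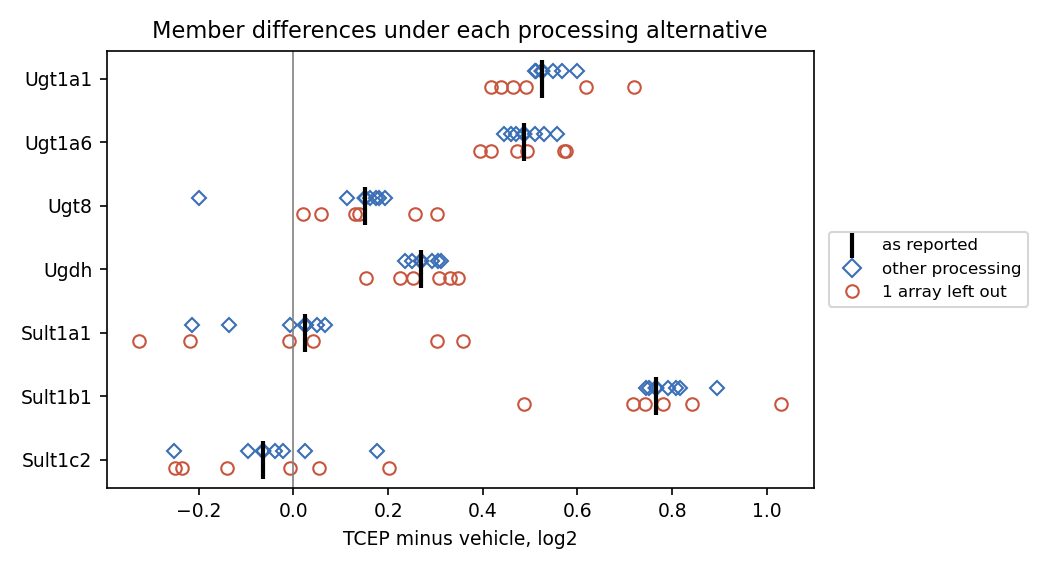
TCEP minus vehicle differences on the log2 scale (x axis) of the 7 tested members as reported (black bars), under 11 other ways of processing (blue diamonds) and with each array left out (red circles). Ugt1a1, Ugt1a6, Ugdh and Sult1b1 stay right of 0 throughout, and Sult1a1 and Sult1c2 lie on both sides of it.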

How the data were processed

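Spots were read with Agilent Feature Extraction 10.7.1.1, per the file headers. From these deposited files the processed signal was used, a linear intensity from which background is already subtracted and which is not scaled between arrays, and flags are deposited as other values of 0 or 1. The authors' series matrix holds the same signal as a ratio to a constant per array, within 0.15% of the array's 75th percentile (column medians 0.104 to 0.107, no centring of genes seen), and was an alternative. The 12 outlier probes were left out, and 27460 probes (44.5%) were named by accession in RefSeq (GRCr8, names only), for 15284 genes.

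A gene was its probe of highest mean over the 6 arrays, and it was tested if the scanner software's flag put the probe well above background throughout at least 1 group. Of 6088 genes with several detected probes, 2388 had probes of opposite sign. TCEP was compared with vehicle by limma 3.58.1 in R 4.3.3, two-sided, with group as the sole term, and the code was tested on simulated data. Tables and figures used Python 3.11.15, pandas 2.3.3, numpy 2.4.6 and matplotlib 3.10.9. Named genes were every member and probe, every tested other UGT and SULT gene, and up to 4 genes per pathway list with the smallest unadjusted p, of which 1 is not reported here. The members and lists were chosen with earlier results of these data known. Alternatives were other background correction (normexp throughout means normexp on the median spot signal, offset 50), scaling, filter, probe choice, variance model and replicate block, and leaving out each array.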

Additional observations from a re-analysis of the deposited data

How the results depend on the processing

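Ugt1a1, Ugt1a6, Ugdh and Sult1b1 kept a higher mean with TCEP in all 17 alternatives, with ranges of 0.42 to 0.72, 0.39 to 0.57, 0.15 to 0.35 and 0.49 to 1.03, and none of the 7 tested members passed an adjusted p of 0.05 in any. Sult1a1 turned to -0.21 with array weights, -0.14 with normexp and -0.0062 with quantile normalization, and leaving out an array gave -0.33 to 0.36. Sult1c2 turned to 0.025 with the mean over its probes and 0.18 with normexp, and leaving out an array gave -0.25 to 0.20. Ugt8 turned to -0.20 with the mean over its probes, of which 1 is dim. The cause of the other turns was not tested. Over all genes 0 passed the adjusted threshold in every alternative. The count at an unadjusted p under 0.05 was 983, and it was 1579 with normexp, 384 with spike-in centring and 3416 when each probe was tested on its own, where more features are tested. The count of genes whose groups do not overlap was 1842, and it was 601 with spike-in centring, 6263 for probes and 2724 to 3301 with 1 array left out, where fewer arrays have to be separated. With the replicate number as a block, 850 genes reached an unadjusted p under 0.05 and 0 passed the adjusted threshold. No label gives a pairing of the arrays. Deviations of same-numbered arrays correlated at -0.15, -0.10 and 0.23, and only replicate 3 correlated best with its own number. With deviations centred within groups of 3 arrays, these correlations cannot decide whether the arrays are paired. With 3 arrays a group, the number of arrays limits the precision, and Ugt2b1, Sult1d1 and Sult2a1 are limited by signal over background.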

Other observations

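Enzymes that reverse conjugation were also listed. Of 10 tested glucuronidase and sulfatase genes 7 were higher and 3 lower (median 0.02, and 0.00 to 0.08 with 1 array left out), and 0 reached an unadjusted p under 0.05 in either direction. Gusb, the lysosomal beta-glucuronidase, differed by 0.10 (SE 0.09), and Sts, the steroid sulfatase, by 0.35 (SE 0.20, adjusted p = 0.690). Leaving out TCEP replicate 1 gave 0.18 and 0.17. Arsg, a lysosomal sulfatase, differed by -0.22 (SE 0.11). In the glucuronate and ascorbate branch 6 of 8 genes were higher (median 0.08), or 4 of 8 without TCEP replicate 3 (median 0.01), and the median was 0.15 without TCEP replicate 1. Rgn, a lactonase of ascorbate synthesis, differed by 0.40 (SE 0.28), or 0.14 without TCEP replicate 1 and 0.23 without vehicle replicate 3. Gulo, its last enzyme, differed by 0.49 (SE 0.36), with TCEP replicate 3 alone high, or 0.06 without that array. Alpl, a phosphatase, differed by -0.15 (SE 0.11), or -0.26 to -0.08 with 1 array left out. Miox, the kidney enzyme that makes glucuronate from inositol, was lower by -0.17 (SE 0.09, adjusted p = 0.661), or -0.10 without TCEP replicate 1. Its groups met without overlap, with vehicle replicate 3 at 9.337 and TCEP replicate 3 at 9.333.

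Other sulfotransferases varied between rats within groups. Sult1c3 was at -2.04, -0.33 and -2.03 on vehicle arrays and at -0.41, -0.33 and -1.47 on TCEP arrays, so vehicle replicate 2 lay with TCEP replicates 1 and 2 (difference 0.73, SE 0.56, adjusted p = 0.757, 1.30 without vehicle replicate 2 and 0.44 without vehicle replicate 1 or 3). Its second probe, at -2.39, -0.72 and -2.42 and at -0.88, -0.60 and -1.89, showed the same arrays high. Sult4a1 was highest on vehicle replicate 2, at -1.94 against -4.43 to -2.75 elsewhere, and its difference of 0.04 ran from -0.44 to 0.81 with 1 array left out. Sult2b1 was at 0.53 on TCEP replicate 1 and between -0.86 and -0.62 on the other 5 arrays, and its difference of 0.46 was 0.05 without TCEP replicate 1.

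For the 5 members whose SD over the 6 arrays was above 0.3, the 3 tested genes of most similar pattern were listed by Pearson's r over the 6 arrays, which share only 2 slides. These are the highest values among all tested genes, so they are a description. For Ugt1a1 they were Cycs, Lactb2 and Hagh (0.983 to 0.987), and for Ugt1a6 Ndufaf4, Ppan and Gsdmdl1 (0.987 to 0.992). For Sult1b1 they were Frs3, Skap2 and Klc4 (0.986 to 0.991), for Sult1a1 Marchf3, Ankrd54 and Atg5 (0.967 to 0.982), and for Sult1c2 Acadl, Phpt1 and Wdfy3 (0.988 to 0.993).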
